A study of Nasonia vitripennis with 70 samples.

Results

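Abdomens of triploid females (5 libraries, coded C36 to C40) were set against abdomens of diploid females (4 libraries, C27 to C30) at generation F2 of the WGDL line of Nasonia vitripennis, a small parasitoid wasp. These 9 libraries were picked by their labels out of 70 in the series. All 9 come from 1 line, which had its genome doubled with colchicine, so the diploid females share that history and are no outside control. The females were 1 day out of the pupa and poly-A RNA was sequenced. Abdomens of F14 females (4 triploid, 4 diploid) and heads of F2 females (5 triploid, 4 diploid) of the same line are set beside the F2 abdomens. The fit that gave the F2 abdomen tests held all 35 abdomen libraries, F14 females and males included, which share its estimate of spread. The sources used here do not say how many wasps went into a library or whether libraries came from separate wasps, so the p values measure the spread between libraries, part of which may be technical.

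Nasonia is haplodiploid: fertilised eggs give females and unfertilised eggs give males, so a male that carries a doubled genome and fathers daughters adds an extra genome copy to each of them. A female abdomen holds the ovaries, whose nurse cells and oocytes load eggs with maternal mRNA, beside fat body, gut, epidermis, muscle, nerve cord and the glands of the reproductive tract. In such a whole-abdomen sample, fewer cells of a type and less RNA per cell cannot be told apart, and the same holds for the share that the ovary takes of the RNA.

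The libraries held 20.5 to 24.7 M counts each, and levels are given as CPM, counts scaled to a common library size. Sex was as labelled: 50 genes that reached a summed 18667 CPM or more in haploid male abdomens summed to at most 18.1 CPM in triploid and 9.13 CPM in diploid F2 abdomens. 2 libraries stood apart from their groups. The diploid library C30 lay among the triploids on the leading principal component, which held 57.2% of the variance, at -23.1 against -63.4 to -18.2 for the triploids and 66.2 to 88.4 for C27, C28 and C29. Over all genes its median absolute difference (log2) was 0.145 from the mean of the triploids and 0.341 from the other diploids. The triploid library C39 was alone on the second component, which held 16.97%, at 84.03 against -23.5 to 7.196 for the rest. Values without C30 stand beside the results below. C30 was singled out from these same data for lying with the triploids, so leaving it out favours a call. A call gained in that way is a description and no independent support.

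**Figure D1:**
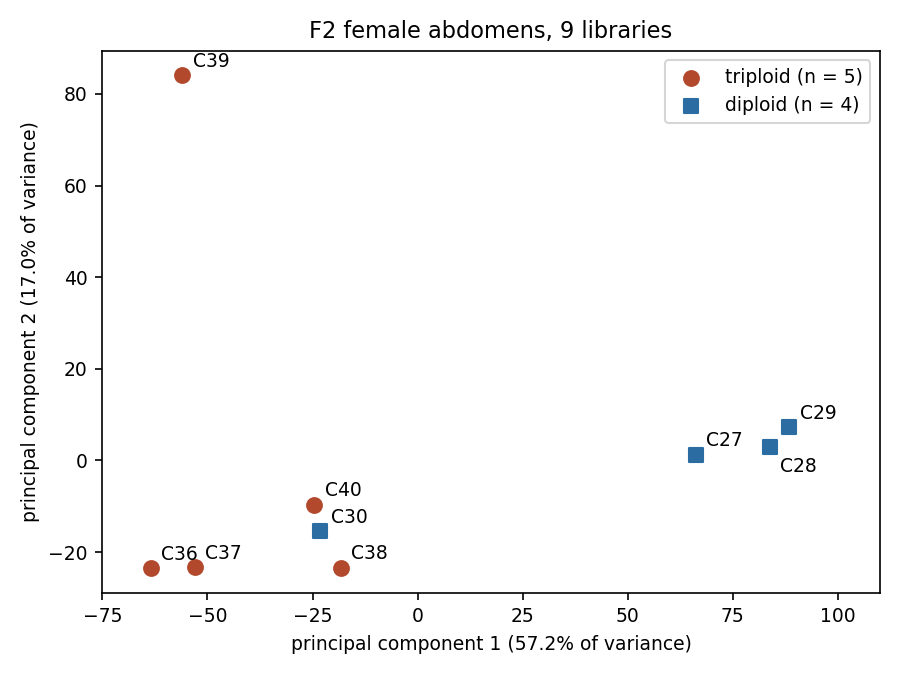
Principal components of log2 CPM in the 9 F2 female abdomen libraries, with component 1 (57.2% of variance) on the horizontal and component 2 (16.97%) on the vertical axis, and 1 point per library (circles triploid, squares diploid). C30 sits with the triploids on component 1, away from C27, C28 and C29, and C39 sits alone at 84.03 on component 2.

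The difference between triploid and diploid abdomens was lopsided towards lower transcripts. Of 12308 genes tested, 858 were lower in triploids (6.97%) and 64 were higher (0.52%), together 7.49%, at an adjusted p below 0.05 (edgeR quasi-likelihood F test, Benjamini-Hochberg, used for every adjusted p below unless another tool is named). The median change was -2.30 (log2) among the called lower genes and 0.82 among the called higher genes, against -0.02 over all genes tested. The 5 triploid and 4 diploid libraries did not overlap at all in 314 of the lower and 42 of the higher genes, and such a gap was found in 12.3% of all genes tested, in either direction. The diploid library C30 lay at or below the highest triploid in 531 of the 858 lower genes, while C27, C28 and C29 all exceeded every triploid in 825. Without C30, 1421 genes were lower (11.3%) and 352 were higher (2.8%). With only the 9 F2 libraries in the fit, 1462 were lower and 792 were higher. Leaving out instead C29, C28, C36, C37 or C27 brought the 858 down to 218, 258, 295, 334 and 449, and the 64 down to 9, 10, 15, 22 and 11; without C39 the higher calls numbered 22.

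The genes called lower mostly had more transcript in heads than in abdomens of F14 diploid females. In F14 diploid females, which were not on either side of the comparison although their abdomens were in the same fit, 739 of the 858 (86.1%) had a higher mean CPM in heads than in abdomens, against 51.3% of all tested genes. The median head-to-abdomen ratio, of CPM + 0.1, was 2.57 (log2) for the lower genes, -0.92 for the 64 higher genes and 0.09 for all tested. Of the higher genes, 17 (26.6%) were more abundant in heads. F14 diploid abdomens were themselves low in many of the lower genes: 583 of the 858 were called higher in F14 triploid abdomens. The head-to-abdomen ratio may thus be smaller against other abdomens, such as C27, C28 and C29, which was not tested.

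**Figure D2:**
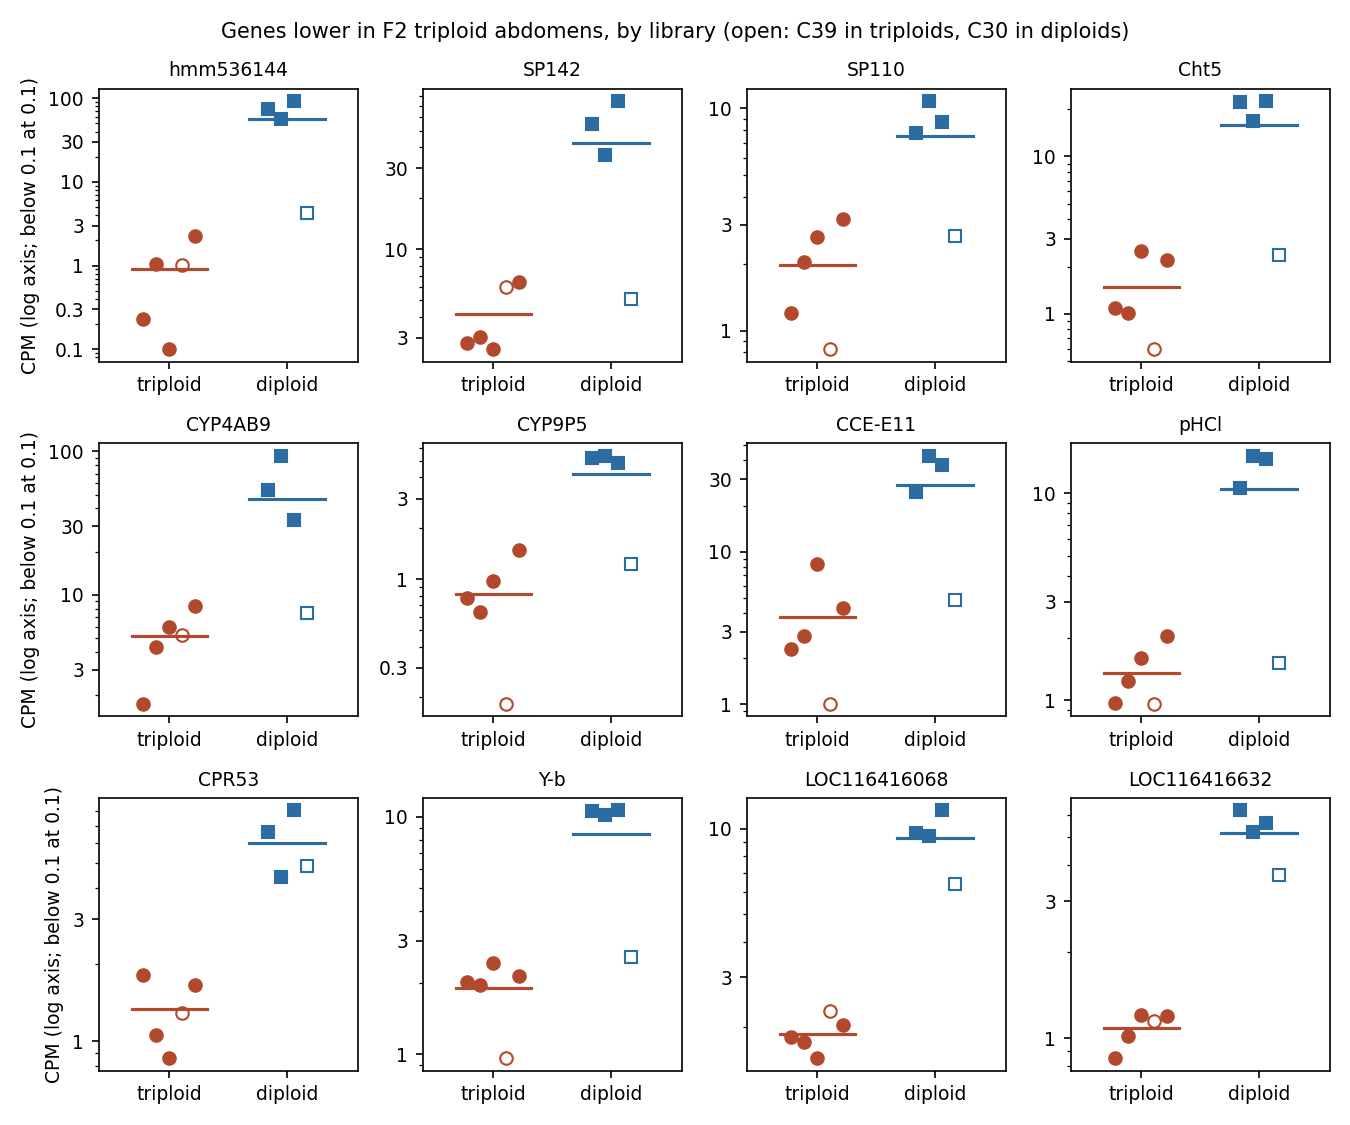
CPM (log axis, values below 0.1 drawn at 0.1) of 12 genes called lower, by library, triploids left and diploids right, 1 point per library and a line at each group's mean; open symbols are C39 and C30. C27, C28 and C29 lie above every triploid in all 12 panels, and C30 lies inside the triploid range or next to it in most.

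Genes of cuticle and chitin gave 6 lower and none higher of 38 tested, with a median of -1.24 (log2). Over all tested genes 6.97% were lower and 0.52% higher, the shares to set beside each list count below. DESeq2 called 1 of them higher, and 1 was higher at an unadjusted p below 0.05. Cuticular proteins and chitin form the exoskeleton, which is still hardening and taking on colour in young adults. Summed over the list, triploids had 190.04 to 299 CPM and C30 had 208 CPM, against 570.3 to 872 CPM in C27, C28 and C29. Cht5, an insect chitinase that digests old cuticle at the moult, had 1.08, 1.02, 2.49, 0.596 and 2.21 CPM in triploids, against 22.1, 16.7, 22.4 and 2.35 CPM in diploids. C30, with the last of these values, fell within the triploid range, and the other diploids were far above it. Cht5 fell by 3.42 (log2, SE 0.79, adjusted p = 0.0103). CPR53, a cuticular protein with the chitin-binding domain called RR, kept C30 on the diploid side: it had 1.82, 1.06, 0.857, 1.28 and 1.66 CPM in triploids, against 6.64, 4.42, 8.03 and 4.85 CPM in diploids. The groups did not overlap, and CPR53 fell by 2.16 (log2, SE 0.54, adjusted p = 0.0151). Limma on TPM, by which log2(TPM + 1) is meant here and below, ended both calls (adjusted p = 0.0995 and 0.0519). Leaving out C29 ended that of CPR53 (adjusted p = 0.0606). With log2(TPM + 0.1) neither call ended, nor did those of Y-b, CCE-E11, CCE-A5, CCE-A6, pHCl and ITR. Those of CYP6AQ9, CYP9AH2, Dsx and E2f8 ended with either. The number of list members called was 2 without C29, 3 without C28, 4 without C40, C37 or C36 and 9 without C30.

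Genes of the yellow family, secreted proteins of which several act in cuticle pigmentation, gave 3 lower of 9, with a median of -1.21. Their summed CPM was 4.41 to 12.7 in triploids and 11.99 in C30, against 25.8 to 32.7 in C27, C28 and C29. Y-b had 2.01, 1.96, 2.42, 0.963 and 2.13 CPM in triploids, against 10.6, 10.1, 10.6 and 2.57 CPM in diploids. C30 was just above the highest triploid, so the groups did not overlap. Y-b fell by 2.16 (log2, SE 0.54, adjusted p = 0.0166), a call lost without C29 (adjusted p = 0.0591) or C28 (adjusted p = 0.0561) and with limma on TPM (adjusted p = 0.0792). With C29 or C28 left out, 1 of the 9 was called, and with C27, C36, C37, C38 or C39 left out 2 were.

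Members of 2 families of detoxifying enzymes were lower. Cytochromes P450, the monooxygenases of detoxification and hormone synthesis, gave 9 lower of 43 (median -1.41), and carboxylesterases, which cleave ester bonds, 5 lower of 13 (median -1.50), with none higher in either list. At an unadjusted p below 0.05 and with DESeq2, none of either list was higher too. Carboxylesterases summed to 28.2 to 70.4 CPM in triploids and 54.2 CPM in C30, against 187 to 248 CPM in the other diploids, and the P450 genes to 746 to 1545 CPM in triploids and 1169.6 CPM in C30, against 1633 to 2156 CPM. As labelled, the 2 groups thus overlapped in both lists, since C30 lay inside the triploid range. C27, C28 and C29 exceeded every triploid, but setting C30 apart from them was a choice made from these same data.

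CYP4AB9 had 1.74, 4.30, 5.96, 5.28 and 8.35 CPM in triploids, against 53.6, 92.9, 33.5 and 7.46 CPM in diploids, and fell by 3.19 (log2, SE 0.68, adjusted p = 0.00758). CYP9P5 had 0.774, 0.641, 0.974, 0.183 and 1.49 CPM in triploids, against 5.23, 5.36, 4.87 and 1.23 CPM in diploids, and fell by 2.35 (SE 0.45, adjusted p = 0.00339). C30 lay inside the triploid range for both genes, below the other diploids, and both calls held with each of the 9 libraries left out in turn. CYP6AQ9 (log2 -2.68, adjusted p = 0.0134) and CYP9AH2 (-2.02, adjusted p = 0.0148) also fell. Their calls ended without C29 (adjusted p = 0.0558 and 0.0876) or C28 (0.0595 and 0.0551) and with limma on TPM (0.138 and 0.104), and that of CYP9AH2 without C36 (0.0550).

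Among the esterases, CCE-E11 had 2.32, 2.83, 8.26, 1.01 and 4.26 CPM in triploids, against 24.8, 42.5, 37.1 and 4.82 CPM in diploids. C30 was again within the triploid range. CCE-E11 fell by 2.87 (log2, SE 0.66, adjusted p = 0.0101) and was called with any 1 library left out, but not with limma on TPM (adjusted p = 0.0626). CCE-A5 (log2 -2.54, adjusted p = 0.0134) and CCE-A6 (-2.39, adjusted p = 0.0174) fell as well, with calls that ended without C29 (0.0565 and 0.0630), C28 (0.0595 and 0.0897) or C36 (0.0509 and 0.0612), and for CCE-A6 without C37 (0.0578). Limma on TPM ended the calls of CCE-A5 and CCE-A6 as well (adjusted p = 0.0783 and 0.0921). Without C29, without C28 and without C36, 1 esterase was called, without C37 2 and without C27 3; the P450 calls numbered 2, 2, 3, 5 and 6 in the same order and 15 without C30.

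Serine proteases, which digest food proteins, activate immune cascades and are prominent in venom and reproductive glands, gave 5 lower and none higher of 40 (median -1.45), with none higher at an unadjusted p below 0.05 or with DESeq2. SP142 had 2.79, 3.05, 2.57, 6.01 and 6.43 CPM in triploids, against 54.8, 35.9, 74.6 and 5.07 CPM in diploids, and fell by 3.35 (log2, SE 0.62, adjusted p = 0.00289). SP100 had 0, 0.339, 0.351, 0.229 and 0.383 CPM in triploids, against 5.27, 3.48, 4.87 and 0.145 CPM in diploids, and fell by 3.69 (SE 0.75, adjusted p = 0.0059). SP110 had 1.20, 2.03, 2.65, 0.826 and 3.19 CPM in triploids, against 7.79, 10.8, 8.72 and 2.68 CPM in diploids, and fell by 1.91 (SE 0.44, adjusted p = 0.0101). In all of these genes C27, C28 and C29 exceeded every triploid, C30 did not, and the calls held with any 1 library left out. The list as a whole did not separate: its sum was 585 to 1061 CPM in triploids, highest in C39, and 536 CPM in C30, against 579.8 to 651 CPM in the other diploids. The number called was 3 without C28 and 8 without C38, and the median was -0.61 without C29. RSEM divides reads among similar sequences, so values of single P450, esterase and protease genes may hold reads of close paralogues.

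hmm536144, a gene whose role is not known here, showed the widest drop of those with a symbol other than a locus number and no overlap between groups. It had 0.232, 1.06, 0, 1.01 and 2.26 CPM in triploids, against 73.4, 56.6, 91.7 and 4.27 CPM in diploids. C30 was the lowest diploid by a wide margin, yet above every triploid. The change was -5.95 (log2, SE 0.98, adjusted p = 0.00243).

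Genes of ion channels and synapses, which mark nerve and muscle, gave 4 lower of 19 (median -1.26) and none higher, also at an unadjusted p below 0.05 and with DESeq2. Of the 19 changes, 15 were negative and 4 positive. Their sum did not separate. It was 63.5 to 112 CPM in triploids and 65.0 CPM in C30, against 91.6 to 133 CPM in other diploids. The nerve marker nAChRb3 averaged 0.79 ± 0.14 TPM (SD) in triploids and 0.485 ± 0.17 TPM in diploids. For nAChRa8 these were 4.52 ± 1.09 and 5.415 ± 0.68 TPM, and for Syt1 3.61 ± 0.65 and 6.19 ± 3.29 TPM. pHCl, a pH-gated chloride channel, had 0.967, 1.24, 1.598, 0.963 and 2.04 CPM in triploids, against 10.7, 15.2, 14.7 and 1.52 CPM in diploids, C30 lying with the triploids. It fell by 2.94 (log2, SE 0.69, adjusted p = 0.011; limma on TPM 0.244). The list had 1 call without C29 or C36 and 2 without C28, C27, C38 or C37. Of 7 peptide and steroid hormone genes tested, 6 had negative changes (median -1.73) and 1 was called lower. DESeq2 called 2 lower, and 3 were lower at an unadjusted p below 0.05. Their sum did not separate: it was 105 to 156 CPM in triploids and 116 CPM in C30, against 120 to 146 CPM in the other diploids. The gene called was ITR, with 1.28, 1.73, 2.61, 1.38 and 3.92 CPM in triploids, against 9.09, 13.8, 9.61 and 2.97 CPM in diploids. It fell by 2.02 (log2, SE 0.56, adjusted p = 0.0273). That call ended without C27 (0.0569), C28 (0.116), C29 (0.0742), C36 (0.0822) or C37 (0.0764) and with limma on TPM (0.0818). C30 was again within the triploid range. Without C30 2 genes of this list were called and without C39 3. Odorant receptors were hardly detectable in abdomens: 51 of 214 could be tested and 2 were lower, in sums of 15.9 to 19.7 CPM in triploids and 17.5 CPM in C30, against 15.7 to 24.2 CPM in the other diploids. Of the gustatory receptors 12 of 46 could be tested and 1 was lower. Neither receptor count stands out from the 6.97% of all tested genes that were lower. Leaving out C28, C29, C36 or C37 brought the odorant receptor calls to 1.

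Of 3 muscle markers none was called (1 with DESeq2 and 1 at an unadjusted p below 0.05), and their sum was 687 to 1051 CPM in triploids and 736 CPM in C30, against 1051 to 1463 CPM in the other diploids. Tm1, a tropomyosin, averaged 687 ± 152 CPM in triploids (SD, n = 5) and 999 ± 291 CPM in diploids (SD, n = 4), a change of -0.54 (log2, adjusted p = 0.429). Zasp66, a protein of the muscle Z disc, averaged 15.9 ± 5.12 CPM in triploids, against 53.004 ± 29.4 CPM in diploids, a change of -1.74 (log2, adjusted p = 0.0692). Tm2, another tropomyosin, averaged 96.7 ± 9.55 CPM in triploids, against 85.5 ± 5.11 CPM in diploids, with a change of 0.18 (adjusted p = 0.851). Without C30, which had 15.5 CPM, Zasp66 fell (log2 -2.04, adjusted p = 0.0250). The part that muscle or nerve content plays in the other calls was not tested.

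In the sex determination pathway of Nasonia, female splicing maintained by Tra leads to the female form of Dsx, the transcription factor that directs sexual traits, and Fru acts in the nervous system. Dsx had 30.8, 42.1, 60.2, 47.5 and 80.2 CPM in triploids, against 156, 258, 203 and 57.4 CPM in diploids. C30 lay among the triploids. Dsx fell by 1.69 (log2, SE 0.49, adjusted p = 0.0332), and by 1.98 without C30 (adjusted p = 0.00929). Leaving out C27 (adjusted p = 0.0600), C36 (0.0955), C37 (0.0860), C28 (0.141) or C29 (0.101) ended the call. Limma on TPM ended it too (adjusted p = 0.0954). Tra had 40.4, 40.8, 39.9, 40.7 and 60.2 CPM in triploids, against 80.4, 95.6, 75.9 and 41.9 CPM in diploids. It did not pass (log2 -0.73, SE 0.30, adjusted p = 0.128), but did without C30 (-0.92, adjusted p = 0.0411). Fru averaged 63.5 ± 9.84 CPM in triploids and 59.9 ± 4.402 CPM in diploids, 0.08 apart (log2, SE 0.24, adjusted p = 0.858).

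The lists tied to dividing and germ cells lay on the other side of 0. Cell cycle and mitosis genes had 14 of 15 positive changes and a median of 0.65, but none was called higher (2 at an unadjusted p below 0.05, none with DESeq2). Their sum was 2766 to 3525 CPM in triploids and 3084 CPM in C30, against 1516 to 1812 CPM in C27, C28 and C29. Cdk1, the kinase that drives entry into mitosis, had 375, 376, 336, 262 and 304 CPM in triploids, against 176, 192, 141 and 301 CPM in diploids. C27, C28 and C29 were thus below every triploid and C30 was not; the change was 0.71 (log2, SE 0.39, adjusted p = 0.252). cycB, the mitotic cyclin, averaged 1257 ± 195 CPM in triploids, against 780.5 ± 358 CPM in diploids, and its change was 0.69 (log2, adjusted p = 0.537). fzy, an activator of the anaphase-promoting complex, averaged 370.2 ± 45.2 CPM in triploids, against 223 ± 86.2 CPM in diploids (a change of 0.73, adjusted p = 0.304). Without C30, 2 of the list were called higher.

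E2f8, a repressor of the cell cycle programme, went the other way from the rest of that list. It had 18.6, 16.9, 19.7, 12.2 and 20.1 CPM in triploids, against 39.3, 35.9, 45.8 and 23.2 CPM in diploids. The groups did not overlap, C30 included. E2f8 fell by 1.04 (log2, SE 0.28, adjusted p = 0.0249). This call was lost when C27 (0.0635), C36 (0.0565), C37 (0.0634), C28 (0.0691) or C29 (0.108) was left out, and with limma on TPM (0.0928).

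DNA replication and repair genes had 16 of 17 positive changes and a median of 0.44, with none called (5 higher at an unadjusted p below 0.05, and 1 with DESeq2). Without C30 3 were higher. Their sum was 974 to 1247 CPM in triploids and 1031 CPM in C30, against 679.9 to 738 CPM in the other diploids. Of 9 genes of germ line and embryo patterning none was called (1 at an unadjusted p below 0.05, none with DESeq2), with a median of 0.28 that was 0.01 without C39. In that list 7 changes were positive and 2 negative. oskar, which assembles the germ plasm of the egg, averaged 756 ± 83.7 CPM in triploids and 706 ± 26.95 CPM in diploids, a change of 0.10 (log2, SE 0.23, adjusted p = 0.814). nanos, which acts in germ cells and the posterior of the embryo, averaged 95.4 ± 13.1 CPM in triploids, against 66.9 ± 15.3 CPM in diploids, with a change of 0.51 (SE 0.43, adjusted p = 0.474). Hb, of the same list, went the other way. It had 74.1, 75.8, 77.4, 224 and 93.5 CPM in triploids, against 146, 132, 187 and 101 CPM in diploids. The high triploid value was that of C39, and the change of Hb was -0.38 (log2, SE 0.65, adjusted p = 0.752).

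Genes of the machinery common to all cells had medians near 0. Oxidative phosphorylation genes had a median of -0.16 over 65 genes, mRNA splicing genes 0.14 over 11, chaperones 0.17 over 8 and ribosome and translation genes -0.03 over 19. None of these genes was called by edgeR or by DESeq2, and 2, 3, 2 and 1 of them had an unadjusted p below 0.05. Still, 56 of 65 oxidative phosphorylation genes had negative changes, and 9 of 11 splicing genes had positive ones. Splicing genes summed to 2116 to 2869 CPM in triploids and 2193 CPM in C30, against 1865 to 1907 CPM in the other diploids. The sums of oxidative phosphorylation, chaperone and translation genes overlapped between triploids and C27, C28 and C29. The chaperone median was -0.02 without C39, which had 14375 CPM of HSC70, a constitutive chaperone, against 3648 to 6534 CPM in the other triploids and 4342 to 5960 CPM in diploids.

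The remaining lists gave few calls. Chromatin modifiers had a median of 0.34 over 7 genes with none called (2 higher and 1 lower at an unadjusted p below 0.05, 1 lower with DESeq2), and 1 higher and 1 lower without C30. Of 16 glutathione S-transferases, which conjugate toxic compounds, 1 was lower (median 0.14), near the 6.97% over all tested genes. None was lower without C27, C29, C36, C37, C38 or C40. Their sum was higher in triploids, at 1589.8 to 2266 CPM, against 1459 CPM in C30 and 1155 to 1271 CPM in the other diploids. Dynein and dynactin genes (11, median 0.22), immunity genes (7, median -0.20), hexamerins and lipid storage genes (4, median -0.55), royal jelly protein relatives (7, median -0.72) and mitochondrial import genes (5, median -0.00) had no call with edgeR or DESeq2, and 1, 1, 1, 0 and 0 of them an unadjusted p below 0.05. Sums of 2 of these lists did not follow their negative medians. Hexamerins and lipid storage genes summed to 219.93 to 573 CPM in triploids and 258 CPM in C30, against 176 to 219.90 CPM in other diploids. Royal jelly protein relatives summed to 59.3 to 84.9 CPM in triploids and 50.9 CPM in C30, against 47.4 to 62.5 CPM in other diploids. The 6 serine protease homologs, which lack a working active site, had no call (2 lower with DESeq2, and 2 at an unadjusted p below 0.05) and a median of 0.54 that was -0.57 without C38.

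With only the 17 female abdomen libraries in the fit, the calls of CYP4AB9, CCE-E11 (adjusted p = 0.0510 each), CCE-A5 (0.0513), CYP9AH2 (0.0568), SP110 (0.0593), CCE-A6 (0.0599), Y-b (0.0612), E2f8 (0.0652), ITR (0.0700) and Dsx (0.0815) ended. Those of hmm536144, SP142, SP100, CYP9P5, CYP6AQ9, Cht5, CPR53 and pHCl held.

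**Figure D3:**
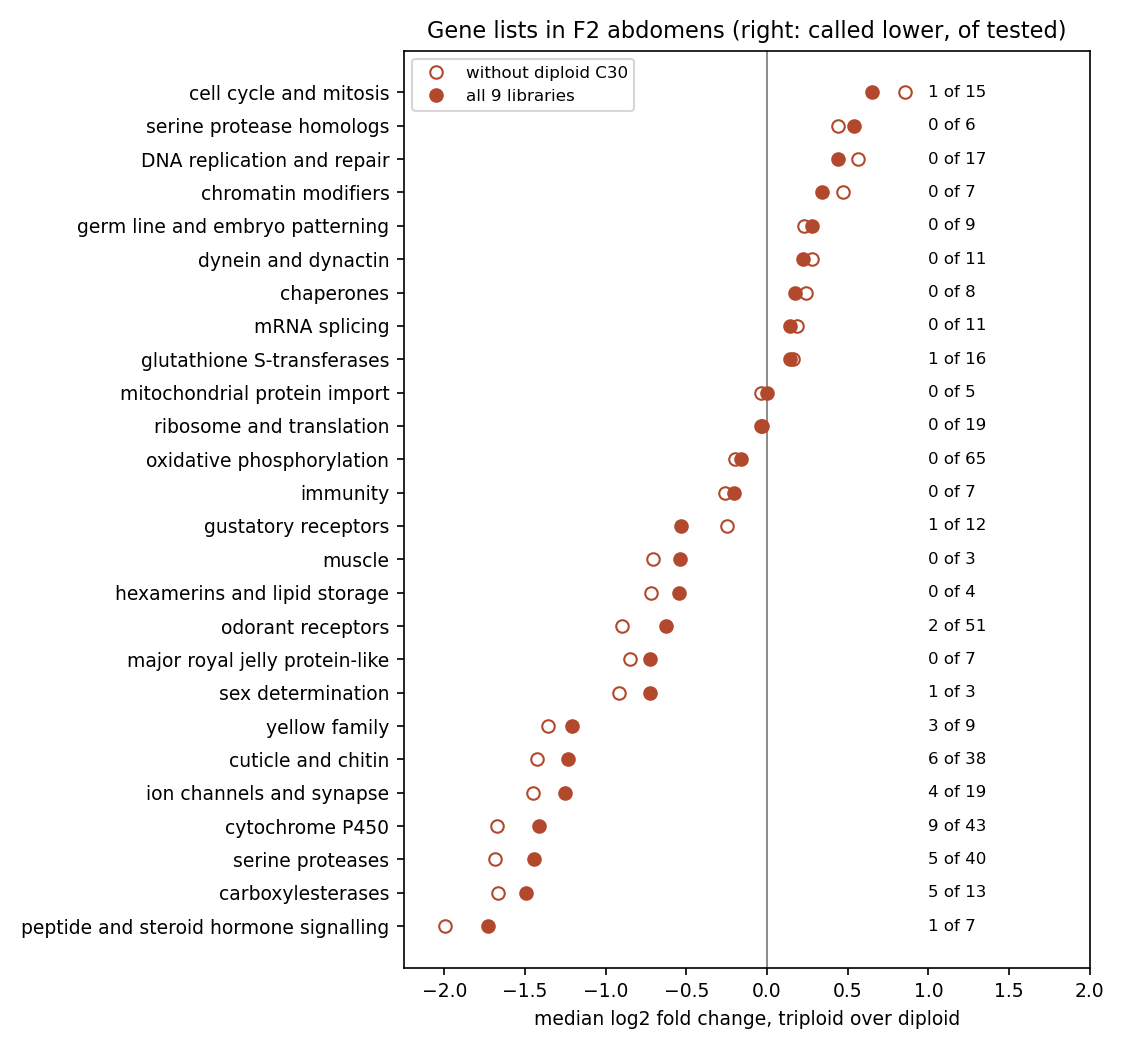
Median log2 fold change (triploid over diploid, horizontal axis) of 26 gene lists in F2 abdomens with all 9 libraries (filled) and without C30 (open); the numbers at the right count members called lower out of members tested. Lists of cell cycle, serine protease homologs and DNA repair are at the top, with medians of 0.44 to 0.65, and 7 lists from the yellow family down lie at -1.21 or lower.

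All 64 genes called higher have locus numbers as symbols, so their roles are not known here. LOC116415765 had 30.1, 24.8, 28.2, 18.4 and 20.6 CPM in triploids, against 0.108, 0.435, 0.0406 and 0.217 CPM in diploids, a change of 6.88 (log2, SE 0.77, adjusted p = 6.89e-06). LOC116415764 had 13.6, 13.4, 14.1, 10.3 and 13.5 CPM in triploids, against 0.144, 0.109, 0.0406 and 0 CPM in diploids, a change of 7.34 (SE 1.08, adjusted p = 0.000303). C30 was with the diploids in both, all triploids were far above all diploids, and both calls held under every setting tried. The fitted changes rest on 22 and 8 counts in all diploid abdomens together. Both genes, chosen after their values were seen, lie on 1 chromosome with 1 gene between them in the order of assembly Nvit_psr_1.1.

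Over all 70 libraries these were the only 2 genes with at least 1 CPM in each of the 10 F2 triploid libraries and more than 2 times the highest of the other 60 libraries, and no gene met the opposite condition. With scaling over all libraries, LOC116415765 was at 17.7 to 31.4 CPM in F2 triploid abdomens and 13.96 to 24.3 CPM in F2 triploid heads, against at most 2.72 CPM elsewhere. LOC116415764 was at 9.87 to 15.5 CPM in F2 triploid abdomens and 11.9 to 16.0 CPM in F2 triploid heads, against at most 1.93 CPM elsewhere. F14 triploid abdomens, with at most 0.337 and 0.520 CPM, were not among the high ones. In the 64 genes called higher, C30 was at or above the lowest triploid in 22. Those 64 were called with C30 among the diploids, which favours genes where it lies with them. Of 95 genes called at least 2-fold higher when C30 was left out, C30 was nearer the triploid mean in 76 (80.0%). Of 1326 called lower in that way, it was nearer in 1134 (85.5%). Among genes at least 8-fold apart with at least 5 CPM in a library, C30 was nearer the triploids in 0 of 5 higher and 178 of 200 lower ones.

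**Figure D4:**
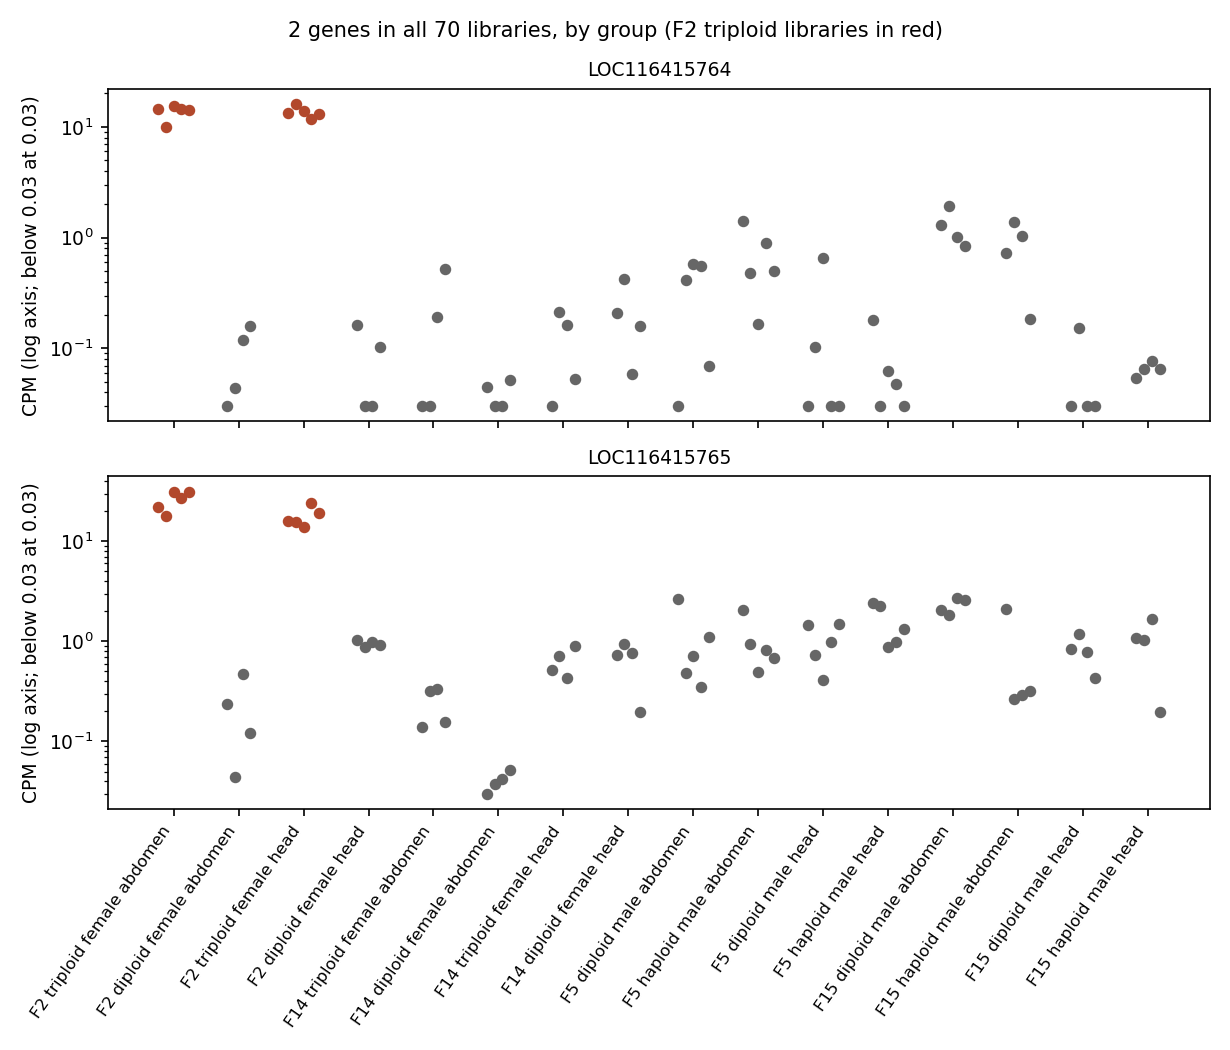
CPM (log axis, values below 0.03 drawn at 0.03) of LOC116415764 and LOC116415765 in each of 70 libraries, by generation, ploidy, sex and tissue, 1 point per library and F2 triploids in red. The 10 F2 triploid libraries lie at 9.87 CPM or more, and no other library exceeds 2.72 CPM.

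2 genes that fell are also known by locus number alone and were named by the rule. LOC116416068 had 1.86, 1.77, 1.56, 2.29 and 2.04 CPM in triploids, against 9.63, 9.46, 11.6 and 6.41 CPM in diploids, and fell by 2.28 (log2, SE 0.35, adjusted p = 0.000634). LOC116416632 had 0.851, 1.02, 1.21, 1.15 and 1.19 CPM in triploids, against 6.20, 5.22, 5.60 and 3.69 CPM in diploids, and fell by 2.25 (SE 0.35, adjusted p = 0.000634). In both, all diploids, C30 among them, were above all triploids.

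The difference between triploid and diploid abdomens at F2 was next set against that at F14. The change differed between the generations in 4044 genes (32.9% of those tested), more negative at F2 in 3055 (24.8%) and more positive in 989 (8.04%); limma on log2(TPM + 1) gave 1457 and 2056, the opposite balance. The more positive calls numbered 461, 486 and 503 without C29, C28 and C27. At F14, 2229 genes were higher in triploids (18.1%) and 218 were lower (1.77%), 19.9% in all. Of the 858 genes lower at F2, 583 were called higher at F14, which is 67.9% of the F2 calls and 26.2% of the F14 calls, and 0 were called lower at F14.

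Cht5 averaged 60.9 ± 56.3 CPM in triploid and 3.75 ± 1.72 CPM in diploid F14 abdomens, the reverse of F2, and its change was 7.43 (log2, SE 1.18) more negative at F2 (-7.43, adjusted p = 5.13e-05). The change of Dsx was likewise more negative at F2 (-4.87, SE 0.74, adjusted p = 3.38e-05), as was that of CCE-E11 (-5.86, adjusted p = 8e-05), SP100 (-6.50, adjusted p = 8.08e-05) and CYP9P5 (-4.52, adjusted p = 2.41e-05). By list, 26 of 40 serine proteases, 26 of 43 P450 genes, 8 of 13 carboxylesterases, 21 of 38 cuticle and chitin genes and 6 of 9 yellow genes were more negative at F2, and 1 cuticle gene was more positive. Over all tested genes 24.8% were more negative at F2 and 8.04% more positive. In the same test 6 of 15 cell cycle genes, 5 of 17 repair genes and 4 of 7 chromatin genes were more positive at F2, and 1 cell cycle and 1 chromatin gene were more negative. For Cdk1 the value was 1.46 (adjusted p = 0.0452), a call that ended without any one of 7 F2 libraries (adjusted p = 0.0516 to 0.0976) or without the F14 triploid library C69 (0.112). LOC116415765 was more positive at F2 (4.05, adjusted p = 0.0185). For LOC116415764 the value was 4.44 (adjusted p = 0.0784; DESeq2 0.0171).

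The F14 triploids were themselves split in the same readouts. C66, C67 and C69 summed to 859, 1058 and 897 CPM of cell cycle genes, while C68 summed to 3240 CPM, against 2325 to 2802 CPM in F14 diploids. In Cht5, C66, C67 and C69 had 52.1, 46.01 and 139.5 CPM and C68 had 5.85 CPM, against 1.90 to 5.49 CPM in F14 diploids. Over the 17 female abdomens, cell cycle sums of 1812 CPM or less thus occurred in C66, C67 and C69, which are F14 triploids, and in C27, C28 and C29, which are F2 diploids; the other 11 libraries, of both ploidies and both generations, had 2325 CPM or more. Dsx was at 156 to 1073 CPM in those 6 libraries and at 30.8 to 80.2 CPM in the other 11. Without C68, 5827 genes differed between generations (2169 more positive at F2), and without C69 2687 did (380 more positive). The part that this split plays in the comparison of ploidy was not tested.

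**Figure D5:**
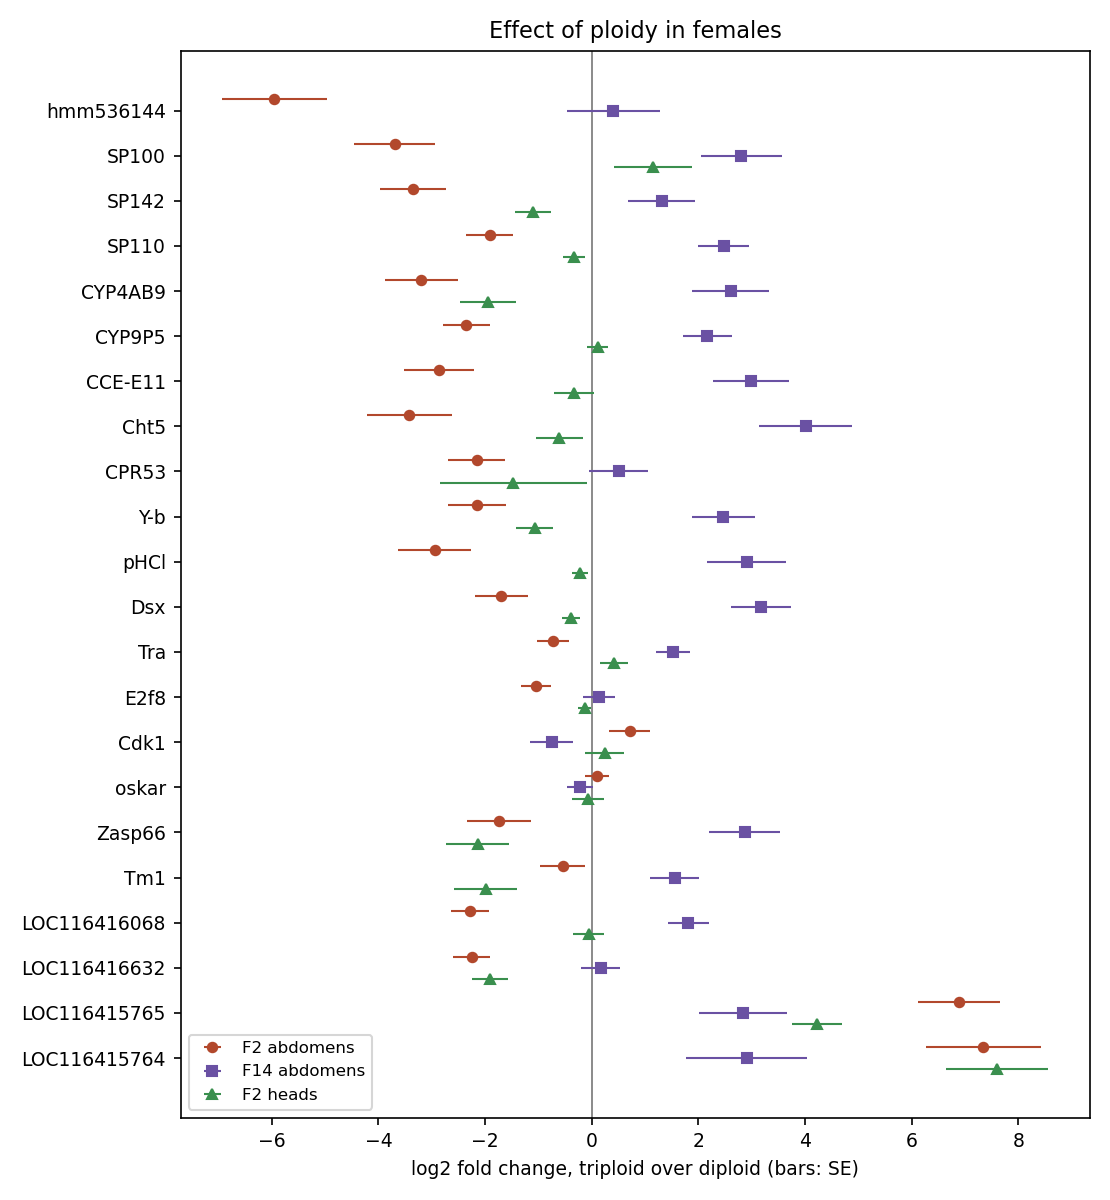
Log2 fold change, triploid over diploid, with its SE (bars) of 22 genes in F2 abdomens (circles), F14 abdomens (squares) and F2 heads (triangles; hmm536144 was not tested in heads). From hmm536144 down to Dsx the F2 abdomen values are all negative and the F14 values all positive, while LOC116415765 and LOC116415764 are positive in all 3 comparisons.

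Against F2 heads, the change with ploidy differed in 1514 genes (12.5% of 12114), more negative in abdomens in 957 (7.9%) and more positive in 557 (4.6%). The 1514 became 814, 844 and 958 without C28, C29 and C27, and 2297 without C30. In heads alone 976 genes were higher in triploids (8.28%) and 1215 were lower (10.3%). Of the 858 genes lower in abdomens, 213 were lower in heads too, which is 24.8% of the abdomen calls and 17.5% of the head calls. SP100 was more negative in abdomens than in heads (-4.85, SE 0.99, adjusted p = 0.00266), as were Cht5 (-2.79, adjusted p = 0.0200), pHCl (-2.71, adjusted p = 0.0151) and CYP9P5 (-2.45, adjusted p = 0.00709). Limma on log2(TPM + 1) ended the calls of Cht5 (adjusted p = 0.0591) and pHCl (-1.04, adjusted p = 0.130). CYP9P5 averaged 23.3 ± 5.60 CPM in triploid and 21.6 ± 3.12 CPM in diploid heads, with no call there (log2 0.11, SE 0.19, adjusted p = 0.727). CYP4AB9, in contrast, fell in heads as well (-1.94, SE 0.52, adjusted p = 0.00952), and the difference between abdomens and heads did not pass (-1.25, SE 0.99, adjusted p = 0.424). LOC116416632 fell in heads too (-1.91, SE 0.34, adjusted p = 0.000261), and its difference from abdomens did not pass (-0.35, SE 0.38, adjusted p = 0.575), while LOC116416068 did not pass in heads (-0.06, SE 0.28, adjusted p = 0.916; difference -2.23, SE 0.35, adjusted p = 0.00019). LOC116415765 and LOC116415764 were higher in triploid heads also (4.22, SE 0.47, adjusted p = 3.34e-07, and 7.60, SE 0.96, adjusted p = 2.21e-06).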

How the data were processed

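Poly-A RNA of whole female abdomens was sequenced. The submitters' processing notes name STAR 2.7.11a, an aligner, and RSEM 1.3.1, which assigns reads to genes, but the genome build was not given in the sources used here. RNA was extracted without DNase treatment, per the labels' protocols. The authors deposited expected counts for 14621 genes and TPM for 14613 genes. 18.2% of the expected counts were not whole and all were rounded. RSEM shares reads among close paralogues. No 2 libraries of a group were copies (lowest chi-square per gene 20.9).

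Counts were tested with edgeR 4.0.16 in R 4.3.3 (TMM, filterByExpr, quasi-likelihood F test; called at an adjusted p below 0.05). One fit covered 35 abdomen libraries in 8 groups (12308 genes, common biological coefficient of variation 0.515, with 27 degrees of freedom left), one 34 female libraries (12114 genes) and one 35 heads (11785 genes). The method was tested on simulated data in which all libraries of a group shared the same mean for each gene. No simulated library was set apart as C30 and C39 are, so that test cannot speak to their part in the calls. Alternatives were DESeq2 1.42.0, limma 3.58.1 on log2(TPM + 1) and log2(TPM + 0.1), RLE factors, no filter, fewer groups and leaving out libraries; without C30 and C39 together, without C68 and without C69 were chosen after seeing the data.

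Members and lists were chosen with earlier results of these data known. The 26 lists were built from gene symbols; 829 of the symbols do not start with LOC, and all 14621 were found in the table of assembly Nvit_psr_1.1. Genes named are up to 4 called per list with the smallest adjusted p and a mean of at least 1 CPM, or the highest-level member where none was called; up to 8 per direction without overlap and with a mean of at least 5 CPM; up to 5 per direction leading the contrasts with F14 and with heads; Tra, Dsx and Fru; the 5 of highest level; markers of other tissues; and at most 2 LOC genes per direction. Some genes the rule takes are not described.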

Additional observations from a re-analysis of the deposited data

Results flagged for a closer look

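Of 104 sets of values examined for a library far from the rest of its group (Dixon's criterion), 14 were flagged, where chance flags about 1 in 20. The triploid library C39 gave 9 of these: its score on the second principal component (84.03), its summed serine proteases (1061 CPM), Tm1 (952 CPM), EF-1a (14734 CPM), HSC70 (14375 CPM), GstS8 (1118 CPM), Fru (80.2 CPM) and apd-3 (1.56 CPM) were the highest of the triploids, and LOC116415764 (10.3 CPM) the lowest. The diploid library C30 was far below the other diploids in CYP9P5 (1.23 CPM) and Y-b (2.57 CPM) and far above them in Thoc4 (1041 CPM) and Rpd3 (222 CPM). The triploid library C40 was far above the other triploids in Tra (60.2 CPM).

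The change with ploidy, triploid over diploid, differed between F2 and F14 abdomens by the interaction test in edgeR for the genes that follow. As F2 minus F14 on the log2 scale it was -4.66 for SP142, -6.50 for SP100 and -4.38 for SP110. It was -4.52 for CYP9P5, -5.80 for CYP4AB9, -3.50 for CYP6AQ9 and -3.73 for CYP9AH2. It was -5.86 for CCE-E11, -5.05 for CCE-A5 and -5.77 for CCE-A6. It was -7.43 for Cht5, -2.66 for CPR53, -4.62 for Y-b, -5.84 for pHCl and -2.91 for ITR. For Dsx it was -4.87, for Tra -2.26, for E2f8 -1.19 and for Cdk1 1.46. For the muscle genes Tm1 and Zasp66 it was -2.10 and -4.61. For hmm536144 it was -6.35, for LOC116415765 4.05, for LOC116416068 -4.10 and for LOC116416632 -2.42. It was 0.76 for Thoc4, 2.49 for WRNexo, 1.19 for Rpd3 and -6.91 for apd-3. Without C69 the calls of ITR (-1.45, adjusted p = 0.122), Tm1 (-1.05, adjusted p = 0.116) and Cdk1 (1.24, adjusted p = 0.112) ended, as did those of Rpd3 (0.98, adjusted p = 0.0657), Thoc4 (0.63, adjusted p = 0.121) and apd-3 (-2.28, adjusted p = 0.522). That of E2f8 ended without C29 (adjusted p = 0.0709), C27 (0.0523) or C39 (0.0651), and those of Rpd3, Thoc4 and apd-3 without C29 (0.0523, 0.0859 and 0.0610) and without C27 (0.0513, 0.0815 and 0.0690). Without C28, C36 or C40 the calls of Thoc4 (0.0537 to 0.0810) and apd-3 (0.0606 to 0.0822) ended, as did that of Thoc4 without C39 (0.0915) and that of apd-3 without C37 (0.0638) or C38 (0.0607). Limma on log2(TPM + 1) ended those of E2f8 (-0.62, adjusted p = 0.292), ITR (0.0563), CYP6AQ9 (0.0692) and apd-3 (-1.77, adjusted p = 0.514).

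The change also differed between F2 abdomens and heads. As abdomen minus head it was -4.85 for SP100, -2.45 for CYP9P5, -2.38 for CYP6AQ9, -2.28 for CYP9AH2, -2.50 for CCE-E11, -2.43 for CCE-A5 and -2.16 for CCE-A6. It was -2.79 for Cht5, -2.71 for pHCl, -1.15 for Tra, 1.44 for Tm1, 2.65 for LOC116415765 and -2.23 for LOC116416068. It was 6.98 for Mrjpl8, 6.14 for apd-3 and 3.17 for Cpap3-d2, genes at or near 0 in abdomens. The call of apd-3 ended without C29 (adjusted p = 0.0683), C28 (0.0572), C27 (0.0589) or C39 (3.36, adjusted p = 0.630). Limma on log2(TPM + 1) ended the calls of Cht5 (0.0591), pHCl (0.130), CCE-E11 (0.0713) and CCE-A6 (0.0823). The calls of CYP6AQ9, CCE-E11, CCE-A5, CCE-A6, Tra and Tm1 each ended with at least 2 of the 9 libraries left out in turn; for CCE-A5 these were C29 (adjusted p = 0.0640) and C28 (0.0688).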

How the results depend on the processing

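No paired analysis was possible because the library codes are not shared between groups. Direction was the same as reported for each named gene that was called, under every alternative run; of 30 such genes, 30 stayed called with RLE factors, no filter, DESeq2, or without C30, but 10 with limma on log2(TPM + 1), 19 with log2(TPM + 0.1), and 13 with female abdomens alone or without C29. The 922 calls (64 higher, 858 lower) became 1580 (132, 1448) with DESeq2, 123 (17, 106) with log2(TPM + 1), 416 (16, 400) with log2(TPM + 0.1), 2254 (792, 1462) with F2 abdomens alone, 264 (37, 227) with female abdomens alone and 1493 (164, 1329) without C30 and C39. Higher calls were 33 with no filter and 23 at 2-fold or more. Leaving out each library gave 227 to 1773 calls, 9 to 352 higher and 218 to 1421 lower, fewest without C29 and most without C30. Of the 922, 918 were also called without C30 and 227 without C29.

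For F2 minus F14, higher and lower calls were 2056 and 1457 with log2(TPM + 1), so that this setting turned the balance between directions; higher calls were 1909 with its 4 groups alone and 1537 without C30 and C39. Leaving out a library gave 2687 to 5827 calls, 380 to 2169 higher. For abdomen minus head, the 1514 calls (557 higher) became 2293 (901 higher) with DESeq2 and 2398 (936 higher, 1462 lower) without C30 and C39, and higher calls were 949 with its 4 groups alone. Leaving out a library gave 814 to 2297 calls, 327 to 849 higher and 486 to 1448 lower. The cause of these changes was not tested.

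With 5 and 4 libraries, 1 of which lies with the other group, the number of calls is uncertain to several-fold, and many diploid means rest on C27, C28 and C29. At 20.5 to 24.7 M counts a library, low genes are measured least well, and 111 of the 858 lower genes had a diploid mean under 1 CPM. Ploidy, library preparation and the condition of the wasps cannot be told apart from the labels.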

Other observations

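A few further genes carried values beyond the comparisons above. GstS8, a sigma-class glutathione S-transferase and the most abundant of its family here, had 742, 655, 629, 1118 and 599 CPM in triploids, against 371, 356, 305 and 544 CPM in diploids. The groups did not overlap, but the change was not called (log2 0.93, adjusted p = 0.158, edgeR). Thoc4, which links splicing to mRNA export, averaged 1230.4 ± 235 CPM in triploids, against 881 ± 107 CPM in diploids, a change of 0.48 (log2, adjusted p = 0.143), and it too did not pass.

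WRNexo, the exonuclease counterpart of the human Werner syndrome protein, averaged 56.2 ± 7.38 CPM in triploids and 21.1 ± 8.90 CPM in diploids, with no overlap between groups (log2 1.42, adjusted p = 0.0743). It was higher without C30 (log2 1.74, adjusted p = 0.0340). Rpd3, a histone deacetylase, was higher without C30 as well (log2 0.91, adjusted p = 0.0340) and had 222 CPM in C30, against 120 to 133 CPM in the other diploids. Lsd2, a protein of lipid droplets, was highest in C39 at 566 CPM, against 217 to 339 CPM in the other triploids and 170 to 255 CPM in diploids.

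3 genes picked because their change with ploidy differed from that in heads were at or near 0 in abdomens, so these values show heads. Mrjpl8 had at most 0.324 CPM in any F2 abdomen, and in heads 0.0628 ± 0.0689 CPM in triploids and 18.2 ± 3.84 CPM in diploids. apd-3 had at most 1.56 CPM in F2 abdomens, and in heads 10.0 ± 2.57 CPM in triploids and 925 ± 240 CPM in diploids. Cpap3-d2 had at most 1.41 CPM in F2 abdomens, and in heads 3.11 ± 0.698 CPM in triploids and 37.1 ± 11.2 CPM in diploids.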
